A study of Mus musculus with 4 samples.

Results

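Purine and pyrimidine synthesis enzymes make the nucleotides that a cell needs for RNA, DNA and energy. The de novo purine branch builds the purine ring stepwise on phosphoribosyl pyrophosphate (PRPP) until inosine monophosphate (IMP) is formed, and IMP then leads to AMP or GMP. The de novo pyrimidine branch makes the ring before the sugar is attached, and ends in UMP, from which UTP and CTP are formed. T cells that leave rest after antigen receptor stimulation are known to enlarge their nucleotide pools before they divide.

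The 10 enzymes described here were Ppat, Gart, Pfas, Paics, Adsl, Atic and Impdh2 of the purine branch and Cad, Umps and Ctps of the pyrimidine branch. Every array row that carried one of these gene names was taken, which gave 21 probes of 56605 probes in all, and 10 genes of 27192 genes. Each of the 21 probes was printed on 1 spot. The brightest probe on average stands for the gene, and all other probes of that gene are described beside it.

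RNA was hybridised to 4 Agilent mouse arrays in a single colour, a single one per condition: naive T cells of either genotype, WT or Nr4a-TKO, and iTreg cells of either genotype 3 h into their culture. Nr4a-TKO denotes loss of the nuclear receptors Nr4a1, Nr4a2 and Nr4a3, through floxed Nr4a1 and Nr4a2 alleles and an Nr4a3 deletion. The mice were on a C57BL/6J background, 6 to 8 weeks old and of both sexes, and carried a human CD2 and CD52 reporter at Foxp3. The Cre driver and the number of mice behind each array are not given in the sources used here. Naive cells were sorted as Foxp3-negative CD4+ cells, low for CD25 and CD44 and high for CD62L, from bone marrow chimeras in irradiated Rag2-/- recipients. The Nr4a-TKO cells matured in recipients of marrow from both genotypes, while the WT cells came from recipients of WT marrow, so genotype and type of chimera cannot be told apart. For iTreg cells, naive cells were stimulated for 3 h with plate-bound anti-CD3 at 2 µg/ml and anti-CD28 at 0.5 µg/ml. The medium held anti-IFN-γ at 1 µg/ml, anti-IL-4 at 1 µg/ml, IL-2 at 10 ng/ml and TGF-β1 at 0.2 or 0.5 ng/ml.

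A single array per condition leaves no spread between replicates, so that each difference below is a value without a test. The precision within an array was read from 300 probes per array that were printed on at least 5 spots. For a log2 difference of 2 arrays it came to an SD of 0.18, or 0.28 for probes with a log2 signal under 8. This spread is called the array SD below. It comes from spots of the same array, and it covers neither mice nor cultures nor the labelling and hybridisation of separate arrays. Levels are log2 signals after background correction and quantile normalization across the 4 arrays, and a difference of more than 2-fold was counted as past the threshold. Levels of different probes are not comparable with each other, because probes differ in how strongly they bind. Between 64.9% and 67.6% of probes were well above background per array, and no spot was saturated.

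Of the markers that define CD4+ T cells, Cd4, Cd3e, Cd3g and Cd28 were well above background throughout, and Trac was not matched to a probe. The 6 early activation markers (Cd69, Egr1, Egr2, Myc, Irf4 and Nfkbid) were over 2-fold higher at 3 h under either genotype label, and of 5 naive T cell markers 4 were over 2-fold lower in WT and 5 in Nr4a-TKO. In naive T cells, 1 early activation marker was over 2-fold apart between genotypes, Irf4, at 1.25 higher for Nr4a-TKO. The median over the 6 was 0.35 there. Of the 4 CD4+ T cell markers measured, 2 were over 2-fold lower at 3 h in WT and 3 in Nr4a-TKO. The summed processed intensity of 4 B cell markers was 529 in naive T and 333 at 3 h for WT, and 577 and 465 for Nr4a-TKO. Among them Cd79b was lower at 3 h (-2.54 in WT and past 2-fold in Nr4a-TKO too), and at 3 h Cd79a was 1.14 higher in Nr4a-TKO than in WT. The sum of 2 CD8 T cell markers lay between 69.5 and 131. The 4 myeloid markers summed to between 37038 and 40059, almost all of it from 1 Itgam probe and 1 Csf1r probe, while Lyz2 and S100a8 were near the lowest detected signal. The part of other cell types in the results was not tested. The targeted genes only partly followed the labels. At 3 h, subtracting WT from Nr4a-TKO gave log2 values of 0.48 for the Nr4a1 probe, 1.37 and 1.38 for the pair of Nr4a2 probes, and -1.86, -1.47 and 0.19 for the 3 Nr4a3 probes, so that Nr4a1 and Nr4a2 went against the labels. In naive T cells the same subtraction gave 1.34 for Nr4a1, past 2-fold against the label. It gave 0.77 and 0.19 for Nr4a2, and 0.08, -0.39 and 0.02 for Nr4a3. Whether these probes lie in the deleted parts is not given in the sources used here. Every direction between genotypes therefore rests on the labels.

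The sequences shown first are those around 4 short motifs that were searched for, on both strands, in promoter windows from 250 bases before to 50 bases after each start site (RefSeq, GRCm38.p6). The motifs were the E-box CACGTG, which Myc and related factors bind, the Ets motif CCGGAAG, the Nr4a motif AAAGGTCA (NBRE) and the palindromic Nrf1 motif, whose letters are the capitals in the Ctps sequence. A window was found for 9 of the 10 enzymes, with 10 windows in all, since Ctps had 2, and Pfas had none. The E-box occurred in 3 of the 10 windows, those of Paics, Impdh2 and Atic, against 7.15% of 32851 windows of all genes. The 30 bases around each are given 5′ to 3′ on the strand of the gene, with the motif in capitals.
Paics (chr5:76951087-76951116, + strand, motif 203 bases before the start): cgcctcggaaagCACGTGgagggacctgct
Impdh2 (chr9:108560314-108560343, + strand, 110 bases before the start): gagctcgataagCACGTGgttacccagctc
Atic (chr1:71557137-71557166, + strand, 7 bases before the start): ggacctcggggtCACGTGgggtcgacacgc
The Ets motif, read on the opposite strand, occurred in 2 windows, those of Ppat and Gart, against 8.86% of all windows, and the capitals mark it below.
Ppat (chr5:76951577-76951606, - strand, 17 bases before the start): acgcgaccccgCTTCCGGgcggcccctccc
Gart (chr16:91646923-91646952, - strand, 33 bases after the start): ttccccgggccaaCTTCCGGcgggtgcgag
The Nr4a motif was in none of the 10 windows and in 1.51% of all windows, and these letters alone were searched. The Nrf1 motif was in 1 window, that of the upstream start of Ctps, against 0.971% of all windows. The 250 bases before this start are shown because Ctps had the highest value of the 10 enzymes at 3 h relative to naive cells, with the Nrf1 motif in capitals (chr4:120570277-120570526, - strand).
Ctps: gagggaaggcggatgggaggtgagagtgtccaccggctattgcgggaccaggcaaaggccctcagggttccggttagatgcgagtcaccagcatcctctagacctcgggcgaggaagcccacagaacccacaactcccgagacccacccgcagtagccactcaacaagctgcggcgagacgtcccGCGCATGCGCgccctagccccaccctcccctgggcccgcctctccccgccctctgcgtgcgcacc
The median GC content was 63.7% over the 10 windows and 52.7% over all windows. A match of letters in a window is a description and shows neither binding nor regulation. Ppat and Paics, on chromosome 5, start on opposite strands and share 277 bases at their beginnings (Ppat from 76913249 to 76951578 on the - strand, Paics from 76951302 to 76967509 on the + strand). The E-box before Paics therefore lies inside the Ppat gene.

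The first comparison asked how transcripts of these enzymes differed between naive T cells and iTreg cells at 3 h. On the arrays labelled WT, 7 of the 10 genes were over 2-fold higher at 3 h (Ppat, Gart, Pfas, Impdh2, Cad, Umps and Ctps), against 8.59% of 19562 genes in this comparison. On the arrays labelled Nr4a-TKO, the same 7 genes were over 2-fold higher, against 8.03% of 19954 genes. None of the 10 was over 2-fold lower under either label, against 9.03% of all genes in WT and 8.45% in Nr4a-TKO. For 10 genes, having none lower is close to these shares. Ppat, Gart, Pfas, Umps and Ctps were over 3-fold higher in WT, against 3.48% of all genes, and these without Gart in Nr4a-TKO, against 2.79%. Pfas, Umps and Ctps were over 4-fold higher under either label, against 1.79% and 1.36% of all genes. Pfas was under 4-fold without background correction (1.86 and 1.60) and with a normexp offset of 50, and Umps in Nr4a-TKO was under 4-fold with that offset (1.95) and when its probes were averaged (1.99). The median log2 difference of the 10 genes was 1.52 for WT and 1.39 for Nr4a-TKO, beside -0.06 and -0.02 over all genes measured. In bulk samples, fewer cells of a type and less RNA per cell cannot be told apart, and the arrays give levels relative to all other probes.

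**Figure D1:**
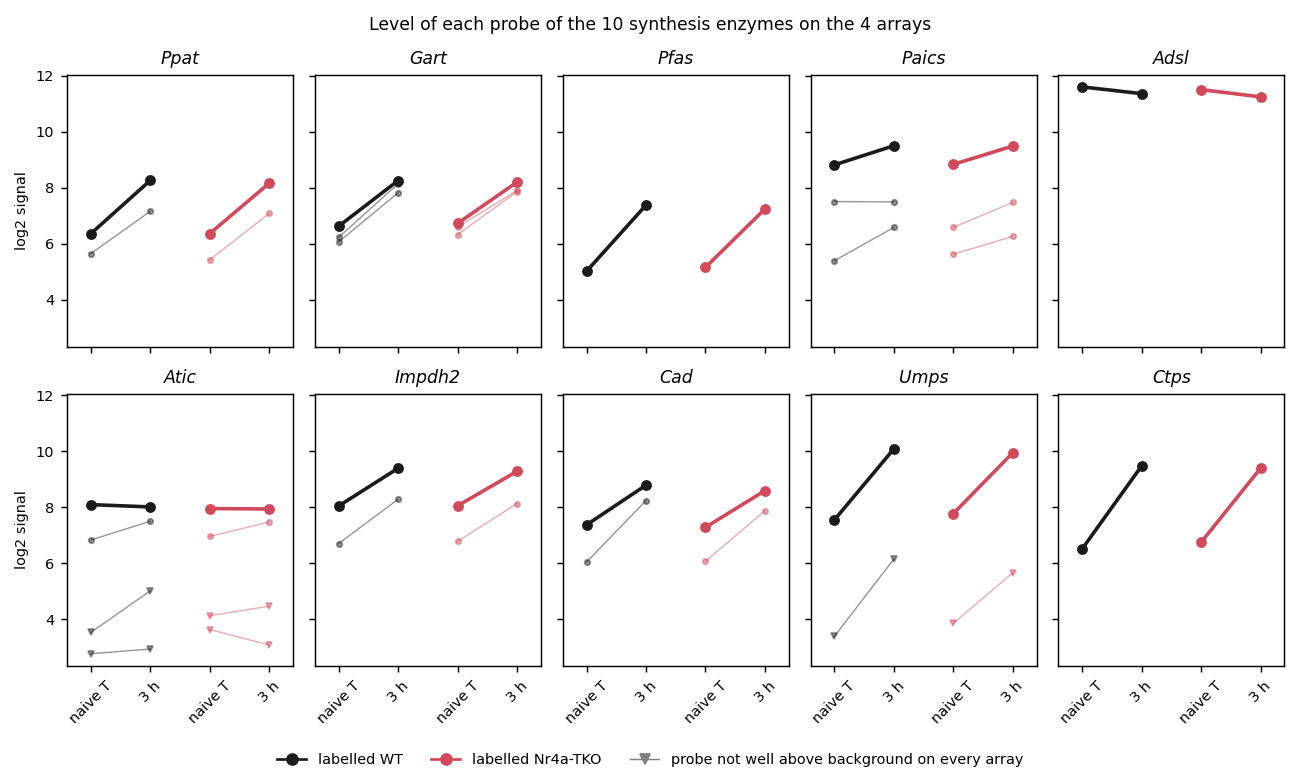
Log2 signal (y axis) of the 21 probes of the 10 enzymes on the 4 arrays (x axis), black for arrays labelled WT and red for arrays labelled Nr4a-TKO, with thick lines for the probe that represents the gene and triangles for probes not well above background on every array. The thick lines slope upward by more than 1 unit in 7 of the 10 panels and are nearly flat for Adsl and Atic, while thin lines of Atic and Paics differ from the thick ones.

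Among the purine enzymes, Ppat carries out the step that commits PRPP to purine synthesis. Its probe at chr5:77347115-77347174 (mm9, as for all probe positions that follow) had log2 signals of 6.36 on both naive T arrays, and at 3 h of 8.26 for WT and 8.16 for Nr4a-TKO. Both arrays at 3 h lay above both naive arrays, with log2 differences of 1.91 for WT and 1.80 for Nr4a-TKO, or 3.75-fold and 3.48-fold. The other Ppat probe gave 1.51 and 1.66, so both probes passed 2-fold under either label.

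Gart, a trifunctional enzyme, acts at 3 later steps of ring formation. Its representative probe at chr16:91624630-91624689 had log2 signals of 6.63, 6.72, 8.26 and 8.20, listed here and from here on as naive T of WT, then of Nr4a-TKO, followed by iTreg at 3 h of WT and of Nr4a-TKO. The values at 3 h were higher by 1.63 for WT and 1.48 for Nr4a-TKO. A further probe at chr16:91633742-91633801 gave 1.93 and 1.31. The third probe named Gart in the files, designed on the cDNA AK028982, runs against the strand of the gene by its coordinates, while 99.2% of 32950 probes with a known gene strand run with it. It gave 1.76 and 1.54, and whether it reads Gart mRNA was not tested.

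Pfas converts formylglycinamide ribonucleotide to its amidine, with glutamine as the nitrogen donor. Its single probe at chr11:68800161-68800220 had log2 signals of 5.02, 5.15, 7.38 and 7.24. The differences of 2.36 and 2.09 came to 5.14-fold for WT and 4.25-fold for Nr4a-TKO, the highest of the purine branch. The probe was well above background on each array. With a normexp offset of 50 the differences were 1.39 and 1.23, below the 1.44 and 1.35 of Ppat.

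Paics is a bifunctional enzyme that carries out a carboxylation and the following aspartate addition. Its representative probe at chr5:77396199-77396258 had log2 signals of 8.82, 8.84, 9.50 and 9.49, and the differences of 0.68 and 0.66 stayed under 2-fold. The 3 Paics probes differed from each other. The probe at chr5:77391876-77391935, designed on another transcript, gave 1.19 for WT and 0.64 for Nr4a-TKO. The third probe spans 1676 bases of the genome (chr5:77388474-77390149), so that its 60 bases join at least 2 exons, and its sequence is shown because its values stand apart from those of the other probes.
Paics junction probe: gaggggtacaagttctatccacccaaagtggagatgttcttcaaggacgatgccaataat
It had log2 signals of 7.51, 6.59, 7.49 and 7.48, so that the array of Nr4a-TKO naive T was low and the other 3 were nearly equal. Its difference at 3 h was -0.01 for WT and 0.89 for Nr4a-TKO. The 2 genotypes did not differ in this way on the representative probe, whose naive levels were 0.02 apart. Each of these probes rests on 1 spot per array.

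Adsl, adenylosuccinate lyase, acts both in ring formation and in the step from IMP to AMP. Its single probe at chr15:80799488-80799547 had log2 signals of 11.61, 11.51, 11.36 and 11.25. The differences at 3 h of -0.24 for WT and -0.26 for Nr4a-TKO were over 1 array SD and under 2 array SDs. After scaling to the 75th percentile in place of quantile normalization, these differences were -0.04 and -0.07.

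Atic closes the purine ring and yields IMP. Its representative probe at chr1:71626146-71626205 had log2 signals of 8.09, 7.95, 8.01 and 7.93, and the differences of -0.08 and -0.01 were within 1 array SD. They turned to 0.04 and 0.10 after scaling to the 75th percentile, so that no direction can be given. The probe at chr1:71625743-71625802 gave 0.67 for WT and 0.51 for Nr4a-TKO. A pair of dim probes lay farther upstream in the gene. At chr1:71609712-71609771 the log2 signals were 3.52, not well above background, and then 4.12, 5.01 and 4.46, with a difference of at least 1.49 for WT and of 0.34 for Nr4a-TKO. The probe at chr1:71606466-71606525 was well above background on the Nr4a-TKO arrays alone, with 3.62 in naive T and 3.07 at 3 h.

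Impdh2 takes IMP toward GMP and is the rate-limiting enzyme of guanine nucleotide synthesis. Its representative probe at chr9:108467836-108467895 had log2 signals of 8.04, 8.05, 9.39 and 9.28. The differences were 1.35 for WT and 1.23 for Nr4a-TKO, and the other probe gave 1.58 and 1.36. The 7 purine genes thus had log2 differences from -0.24 to 2.36 in WT and from -0.26 to 2.09 in Nr4a-TKO, with medians of 1.35 and 1.23.

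In the pyrimidine branch, all 3 genes and all 5 probes were over 2-fold higher at 3 h under either label. The shares over all genes were 8.59% in WT and 8.03% in Nr4a-TKO, and those over all probes were 9.29% and 8.26%. The medians over the 3 genes were 2.54 and 2.18. Cad holds the opening 3 activities of the branch in a single protein. Its representative probe at chr5:31369447-31369506 had log2 signals of 7.36, 7.28, 8.78 and 8.59, with differences of 1.42 and 1.31. The other Cad probe, at chr5:31380681-31380740, gave 6.04, 6.06, 8.23 and 7.87, and thus differences of 2.19 and 1.80. The probes agreed in direction and differed by 0.78 in size for WT.

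Umps turns orotate into UMP. Its representative probe at chr16:33956683-33956742 had log2 signals of 7.54, 7.77, 10.08 and 9.94, and processed intensities of 158, 177, 1163 and 1025. The log2 differences were 2.54 for WT and 2.18 for Nr4a-TKO, or 5.81-fold and 4.52-fold. The second probe, at chr16:33955215-33955274, was not well above background in WT naive T, where its signal was 3.38, and had 3.84, 6.14 and 5.65 on the others. It was at least 6.48-fold higher at 3 h for WT and 3.51-fold higher for Nr4a-TKO.

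Ctps forms CTP from UTP and has a paralog, Ctps2. The single Ctps probe at chr4:120212489-120212548 had log2 signals of 6.51, 6.74, 9.47 and 9.39, and processed intensities of 89.2, 102, 887 and 783. It was higher at 3 h by 2.96 for WT and 2.65 for Nr4a-TKO, or 7.81-fold and 6.28-fold. In WT only 78 of 19562 genes had a larger log2 difference than Ctps, while 144 exceeded Umps, 200 exceeded Pfas and 412 exceeded Ppat. In Nr4a-TKO these counts were 98, 206, 239 and 385 of 19954 genes.

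**Figure D2:**
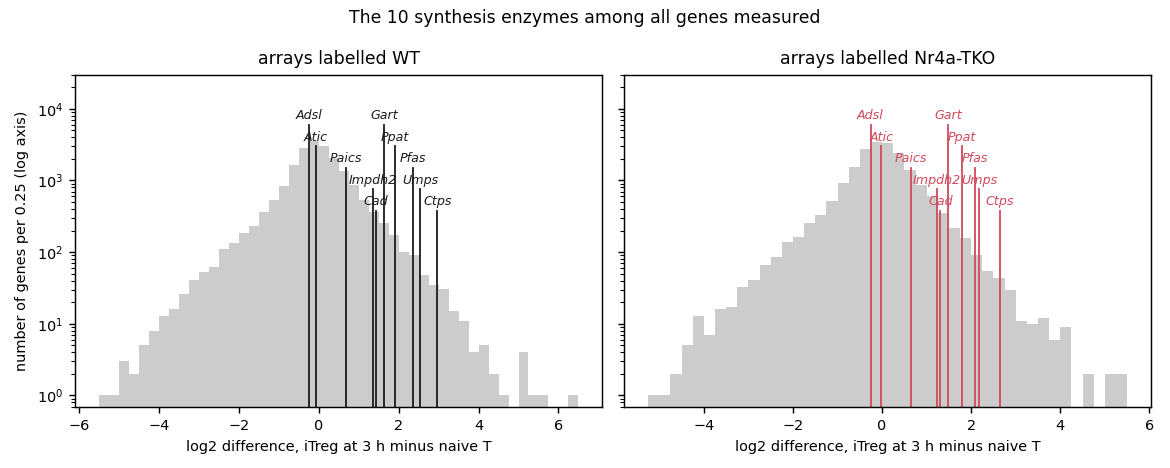
Number of genes (y axis, log scale) by log2 difference between iTreg at 3 h and naive T (x axis, bins of 0.25), in grey, with a line for each of the 10 enzymes, for arrays labelled WT on the left and Nr4a-TKO on the right. Ctps lies farthest to the right of the 10, at 2.96 and 2.65, and Adsl and Atic lie in the bulk of all genes.

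The order of the 10 genes by this difference was the same under both labels, from Ctps through Umps, Pfas, Ppat, Gart, Cad, Impdh2 and Paics to Atic and Adsl. The genotypes are separate arrays, but they share the probes and thus the response of each probe. The difference between 2 such log2 differences has an array SD of 0.25, so that a gap of 0.50 between neighbours equals 2 of these SDs. Only 2 of the 9 gaps exceeded it under either label, those between Impdh2 and Paics (0.66 and 0.58) and between Paics and Atic (0.77 and 0.67). The other neighbours in the order did not differ beyond that spread. This SD does not cover differences between probes of the same gene. The 3 Paics probes alone ran from -0.01 to 1.19 in WT. The order depended on the processing, since Ppat passed Pfas with a normexp offset of 50, and Atic at 0.69 passed Paics at 0.62 in WT when all probes were averaged.

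Counted by probe, 15 of the 20 probes measured in WT were over 2-fold higher at 3 h, against 9.29% of 39310 probes, and 13 of 21 in Nr4a-TKO, against 8.26% of 40160 probes. The 2 probes that were past 2-fold in WT alone were the Paics probe of the other transcript and the Atic probe at chr1:71609712-71609771. Of the probes under 2-fold in WT, 2 were Atic probes, 2 were Paics probes and 1 was that of Adsl.

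**Figure D3:**
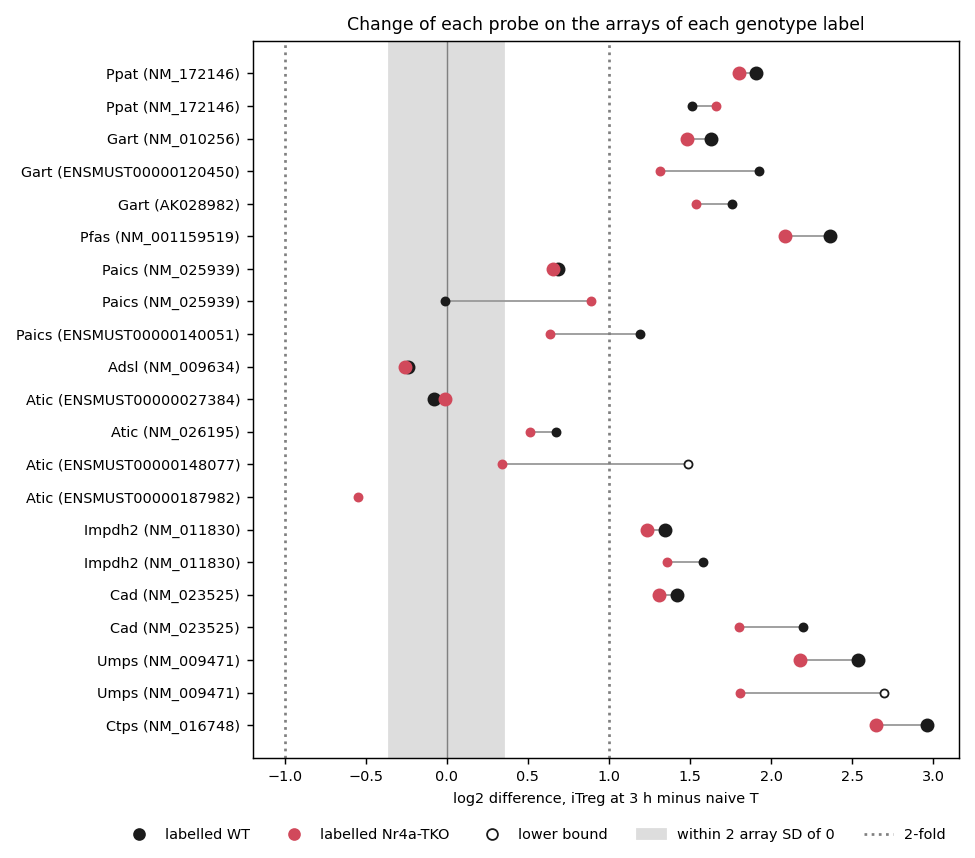
Log2 difference between iTreg at 3 h and naive T (x axis) for each of the 21 probes, named by gene and transcript, with black points for arrays labelled WT, red points for arrays labelled Nr4a-TKO, open points for lower bounds and large points for the probe that represents the gene. Dotted lines mark 2-fold and the grey band 2 array SDs on either side of 0. The Paics junction probe has the widest gap between genotypes with red to the right.

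The second comparison set the genotypes against each other at each stage. In naive T cells, none of the 10 genes was over 2-fold apart, against 1.91% of 19482 genes over 2-fold higher with the Nr4a-TKO label and 1.63% over 2-fold lower. The differences, Nr4a-TKO minus WT, ranged from -0.14 for Atic to 0.23 for Ctps, with a median of 0.01. Of the 10 genes, 8 were within 1 array SD of 0, against 50% of all genes, and all 10 within 2. The share of all genes, here and at 3 h, includes dim genes, whose spread is wider. Umps at 0.22 and Ctps at 0.23 exceeded 1 array SD and were under 0.28, the array SD of probes at their level. By probe, 12 of 21 were within 1 array SD, 17 were within 2 and 16 were above 0, and no shares over all probes are given beside these counts. Outside 2 array SDs were the Paics junction probe at -0.92, a Gart probe at 0.37, the dim Umps probe at 0.40 and a dim Atic probe at 0.60. Their naive signals were under 8, where 2 array SDs come to 0.56, so that the Gart and Umps values lie within that wider spread. The Umps and Atic values are lower bounds, since neither probe was well above background in WT naive T.

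At 3 h, none of the 10 genes was over 2-fold apart either, against 1.77% of 19755 genes over 2-fold higher and 1.93% over 2-fold lower. All 10 were lower for Nr4a-TKO than for WT, with differences from -0.20 for Cad to -0.01 for Paics and a median of -0.11, and 49.4% of all genes were below 0. Of these 10 differences, 9 were within 1 array SD, against 50.2% of all genes, and all within 2. By probe, 19 of the 20 with a difference were below 0, against 49.7% of all probes. The remaining Atic probe has none, because its signal in Nr4a-TKO lay under the lowest detected signal of the WT array. The lowest probe values at 3 h were -0.55 for a dim Atic probe, -0.49 for the dim Umps probe and -0.36 for the second Cad probe. Genes over 2-fold higher at 3 h in WT and well above background on the 4 arrays were below 0 in 69.6% of 1382 cases, a set that shares the WT array at 3 h with this comparison. The sign at 3 h was below 0 for all 10 genes under the 7 other settings of normalization, background, filter and probe choice as well, which reuse the same 2 arrays.

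The difference between the 2 changes, Nr4a-TKO minus WT, ranged from -0.36 for Umps to 0.07 for Atic, with a median of -0.11. It was below 0 for 9 of the 10 genes, against 47.9% of the 16734 genes with a signal well above background throughout and 72.0% of the 1382 genes that were over 2-fold higher at 3 h in WT. All 10 values were within 2 array SDs of such a difference. By probe, 15 of the 18 probes well above background on the 4 arrays were within 2 of these SDs. The others were a Gart probe at -0.61, the Paics probe of the other transcript at -0.55 and the Paics junction probe at 0.90. Most signals of these probes were under 8, where the SD of such a difference is 0.39. The values of -0.61 and -0.55 lie within 2 of this wider SD, and only that of the junction probe lies outside. Among the 10 genes, Umps (-0.36), Ctps (-0.31) and Pfas (-0.27) had the lowest values. These 3 genes also had the largest differences between 3 h and naive T. The WT arrays enter both quantities.

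**Figure D4:**
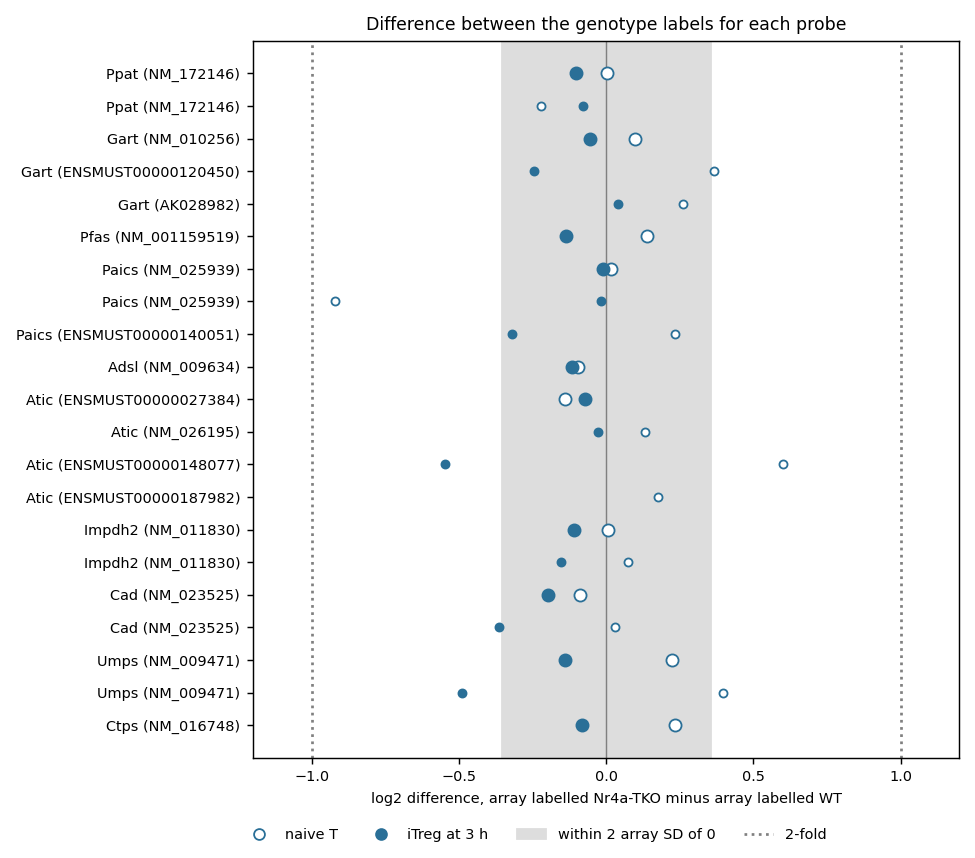
Log2 difference between the array labelled Nr4a-TKO and that labelled WT (x axis) for each of the 21 probes, with open points for naive T, filled points for iTreg at 3 h and large points for the probe that represents the gene. One Atic probe has no filled point. The large points lie between -0.20 and 0.23, inside the grey band of 2 array SDs, and the Paics junction probe in naive T lies at -0.92.

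The remaining genes of nucleotide metabolism were described in 6 lists with 60 genes, of which 55 were measured in WT and 56 in Nr4a-TKO. In WT, 17 were over 2-fold higher at 3 h and 11 over 2-fold lower, against 8.59% and 9.03% of all genes. In Nr4a-TKO, 10 were higher and 9 lower, against 8.03% and 8.45%. These lists held genes past 2-fold in both directions. Each value below is that of the brightest probe of a gene, and other probes of the gene can differ from it.

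The genes that supply PRPP or complete the branches included 5 over 2-fold higher and 2 over 2-fold lower of 9 measured in WT, and 2 in each direction in Nr4a-TKO. Prps1, a PRPP synthetase, had 1.29 in WT and 1.13 in Nr4a-TKO. Adss, which takes IMP toward AMP, had 1.01 and 1.11, but another of its probes gave 0.58 in Nr4a-TKO. Dhodh, the mitochondrial step between Cad and Umps, had 1.11 and 0.78, but its 3 probes ran from -0.99 to 1.21 in Nr4a-TKO. Gmps, the step after Impdh2, had 1.02 and 0.89, and Impdh1, the paralog of Impdh2, had 1.01 and 0.67. The paralogs Prps2 and Ctps2 were lower. Prps2 had -1.03 in WT and -1.01 in Nr4a-TKO, and Ctps2 had -1.39 and -1.66, opposite in sign to Ctps. Other probes reached -0.83 for Prps2 and -0.49 for Ctps2 in WT. Many of these values lie near the threshold, within 1 array SD of it.

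Among 10 salvage genes, which reuse bases and nucleosides, Uck2 had 2.43 in WT and 2.47 in Nr4a-TKO, while Aprt had 1.07 and 0.89. In WT, the Uck2 probes ran from 1.25 to 2.43 and the Aprt probes from 0.39 to 1.72. Uck2 phosphorylates uridine and cytidine, and Aprt reuses adenine. Dck, the deoxycytidine kinase, had -1.83 and -1.93. Hprt, which reuses hypoxanthine and guanine, had 0.94 and 0.67.

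Of 12 nucleotide kinases measured, 5 were over 2-fold higher and 2 over 2-fold lower in WT, and 3 in each direction in Nr4a-TKO. Ak6 had 2.53 in WT and 1.75 in Nr4a-TKO, and Nme1 had 1.93 and 1.32. Dtymk, the thymidylate kinase, had 1.14 and 0.83, with another probe at 0.03 in WT, and Nme2 had 1.01 and 0.93. Cmpk2, a mitochondrial kinase also known as an interferon-induced gene, was well above background on the naive arrays alone, and its values of -3.80 and -3.68 are therefore bounds. Nme4 had -1.15 and -1.83, and Ak3 had -0.83 and -1.04.

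The genes of deoxynucleotide supply differed from the synthesis enzymes. Rrm1 and Rrm2, the subunits of ribonucleotide reductase, had 0.35 and -1.95 in WT and 0.35 and -0.21 in Nr4a-TKO. Rrm2 was not well above background in WT iTreg at 3 h, so that its -1.95 is a bound. Tyms, thymidylate synthase, had 0.08 under either label, and its probes ran from -0.45 to 0.37 in WT. Samhd1, which hydrolyses deoxynucleotides, had -1.77 and -1.62, and Dctd, dCMP deaminase, was higher by at least 2.12 and 2.11, being well above background at 3 h alone.

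Of the breakdown genes, Ampd2, an AMP deaminase, had 1.15 in WT and 1.18 in Nr4a-TKO, Xdh, xanthine dehydrogenase, had -1.34 and -1.25, and Ampd3 had -1.15 and -0.995 as bounds. In WT, the lowest Ampd2 probe gave 0.50, and another Xdh probe gave -0.31. Of 4 nucleoside transporters, Slc29a1 had 2.35 and 1.61, and Slc29a2 was higher by at least 2.89 and 2.83. Slc28a2, a concentrative transporter, had -1.91 and -1.98. Slc29a3 had 1.05 in WT and -0.07 in Nr4a-TKO, but its other probe gave -0.19 in WT.

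Between genotypes, 1 of 53 genes of these lists was past 2-fold in naive T cells and 2 of 54 at 3 h, near the shares of all genes given above. In naive T cells Ada, adenosine deaminase, had -1.23 as a bound. At 3 h Rrm2 was at least 1.11 higher (log2) and Slc29a3 had -1.46, both as Nr4a-TKO minus WT. None of these 3 genes belongs to the 10 synthesis enzymes.

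**Figure D5:**
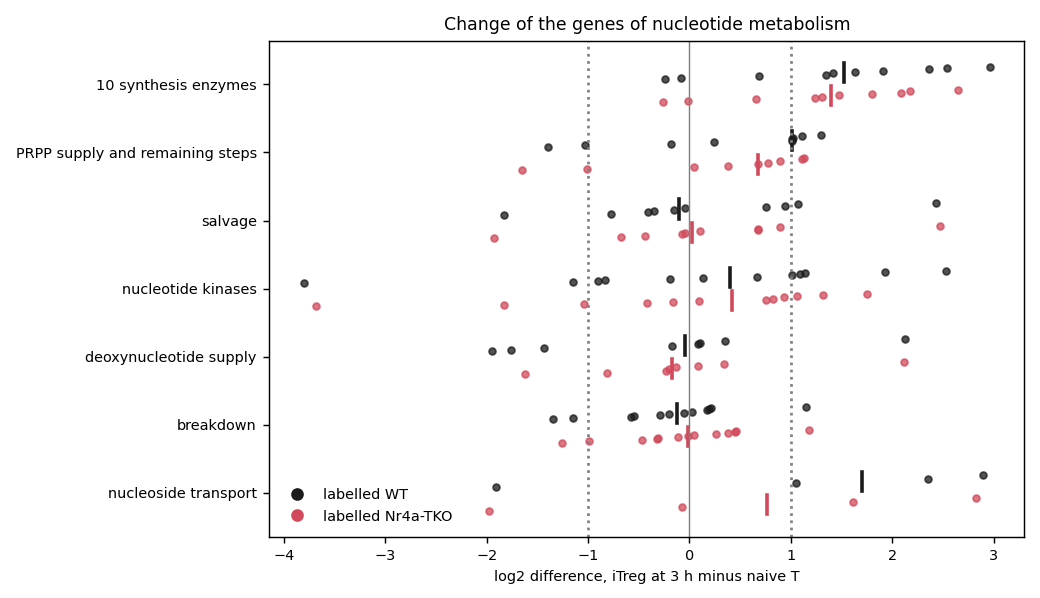
Log2 difference between iTreg at 3 h and naive T (x axis) for the 10 synthesis enzymes and the measured genes of 6 further lists of nucleotide metabolism, with 1 point per gene, black for arrays labelled WT and red for Nr4a-TKO, bounds drawn at their limit, and a bar at each median. The medians of the synthesis enzymes are 1.52 and 1.39, while salvage, deoxynucleotide supply and breakdown have medians near 0 with genes on both sides.

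The profile of the 10 genes was summarised as the median of their log2 values over the 4 arrays, each gene centred on its own mean. It ran from -0.74 in WT naive T and -0.73 in Nr4a-TKO naive T to 0.79 in WT iTreg and 0.67 in Nr4a-TKO iTreg at 3 h. By Euclidean distance over the 4 arrays, Gart (0.12), Cad (0.13) and Impdh2 (0.17) lay closest to it among the 10 genes, and Adsl (1.72) and Atic (1.52) farthest. Of 15518 other genes compared, the 5 closest were Eif6 at 0.01, Kars at 0.02, Prdx1 at 0.03, Pdcd11 at 0.05 and G3bp1 at 0.05. Kars, a lysyl-tRNA synthetase, had log2 differences of 1.52 in WT and 1.37 in Nr4a-TKO, and Prdx1, a peroxiredoxin, had 1.51 and 1.40. With 4 arrays and so many genes, close profiles are a description and no measure of shared regulation.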

How the data were processed

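The authors deposited Agilent Feature Extraction 11.5.1.1 output per array, with the mean and local background intensity of each spot, on mm9 coordinates, and a log2 value table. Their methods name RMA in GeneSpring, whereas the deposited log2 table was found to hold log2 of the processed intensity, shifted per array to its 75th percentile. Here, normexp (offset 0), quantile normalization across 4 arrays, log2 and averaging of spots were run in limma 3.58.1 (R 4.3.3, data.table, version 1.17.8), then in Python 3.11.15, pandas 2.3.3, numpy 2.4.6 and matplotlib 3.10.9. Control and outlier spots were left out. Dim probes were raised to the lowest signal well above background on that array (log2 3.07 to 3.45), and a difference needed 1 of 2 arrays well above background, with a signal there no lower than the raised one. The GRCm38.p6 RefSeq table gave names and promoters. Named genes were the 10 enzymes, list genes past 2-fold under either label, Impdh1, Ctps2, Gmps, Dhodh, targeted genes and the 5 closest profiles. Hprt, Rrm1 and Tyms were added after their values were seen, and some list genes are not reported by name here. Members and lists were chosen with earlier results of these data known. Alternatives were other background corrections, scalings, filters, probe choices and thresholds of 1.5-fold and 3-fold.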

Additional observations from a re-analysis of the deposited data

Results flagged for a closer look

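The Paics junction probe, on chromosome 5 of mm9 from 77388474 to 77390149, had log2 differences (iTreg at 3 h minus naive T) of -0.014 in WT and 0.89 in Nr4a-TKO, which differ in sign. The difference between them was not tested, since there is 1 array per group and 1 spot per array. The WT value was within 1 array SD of 0 and was 0.027 after scaling to the 75th percentile, so that it shows no direction, and the other Paics probes had differences above 0 under both labels.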

How the results depend on the processing

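The count of enzymes over 2-fold higher at 3 h kept within 1.5 times of 7 under each setting tried, except in Nr4a-TKO at a threshold of 3-fold, with 4. The median over the 10 enzymes moved to 1.23 in WT and 1.12 in Nr4a-TKO with a normexp offset of 50, and to 1.74 in WT when all probes of a gene were averaged. Over the 60 further genes, the number higher in WT was 7 with the offset of 50 and 6 at 3-fold, and the number lower was 4 with that offset, 6 without background correction, 5 at 3-fold and 7 for probes well above background on the 4 arrays. In Nr4a-TKO, the number higher was 19 at 1.5-fold and 5 at 3-fold, and the number lower was 4 with the offset of 50. The causes were not tested, beyond that an offset adds to both signals. Adsl stayed below 0 under both labels, from -0.24 to -0.02 in WT and from -0.26 to -0.06 in Nr4a-TKO, while Atic took both signs, from -0.09 to 0.69 in WT and from -0.02 to 0.12 in Nr4a-TKO. Scaling to the 75th percentile moved the median of all genes from -0.06 to -0.12 in WT. No paired analysis was possible because each group has 1 array, and for the same reason no replicate could be left out. Signal over background limits the dim probes of Atic and Umps to bounds.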
